A study of Mus musculus with 8 samples.

Results

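The genes described here are 10 members of the insulin-like growth factor (IGF) family in the mouse distal colon, out of 15859 genes counted: the ligands *Igf1* and *Igf2*, the receptors *Igf1r* and *Igf2r*, and the binding proteins *Igfbp2* to *Igfbp7*. They were chosen by name, and the set was singled out on a measured value, the level of *Igf2* in 1 library labelled untreated WT, so that value is given below as a description with no test. All 10 passed the filter on low counts, among 14371 genes tested.

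RNA was sequenced from 8 male mice, 2 in each of 4 groups: HSF1 WT and HSF1 null, each at day 0 (untreated) and at day 15. All were of the mixed BALB/c x 129SvEV background, and the labels give every mouse an age of 10 weeks, where the design text has 9.5 weeks. Treated mice received the carcinogen azoxymethane (AOM) at 10 mg/kg into the peritoneum at 8 weeks of age, then from day 7 drank 1.5% dextran sulfate sodium (DSS), an irritant of the gut lining, for 5 days. The protocol in the labels ends when DSS ends, whereas the titles say day 15. The paper that reported these data also gives day 15, with the mice killed some days after DSS ended. Each library is a whole piece of colon, so fewer cells of a type and less RNA per cell cannot be told apart. Nothing in the labels says that same-numbered mice were related, and p-values rest on the spread between the 2 mice of each group, pooled over the 4 groups. In edgeR each gene's spread is also drawn toward that of the other genes, with a prior of 5.97 degrees of freedom.

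IGF1 and IGF2 are secreted hormones that act through the receptor tyrosine kinase IGF1R, while IGF2R binds IGF2 and carries it to lysosomes. The binding proteins hold the ligands in tissue fluid and matrix, where proteases can release them. In the intestine much of this family is made by the mesenchyme, the fibroblasts and muscle that lie around the epithelium. HSF1 is the transcription factor that drives the heat shock response.

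The upstream sequences of the pair of binding proteins that rose in WT mice, *Igfbp5* and *Igfbp4*, are shown because both genes were called in WT mice in the results below. They are the 250 bases before the RefSeq start on GRCm38, 5′ to 3′ on the strand of the gene, with searched motifs in capitals: GAANNTTC in *Igfbp5* and TATAAA in *Igfbp4*.
Igfbp5 promoter (GRCm38, chr1:72874866-72875115, minus strand): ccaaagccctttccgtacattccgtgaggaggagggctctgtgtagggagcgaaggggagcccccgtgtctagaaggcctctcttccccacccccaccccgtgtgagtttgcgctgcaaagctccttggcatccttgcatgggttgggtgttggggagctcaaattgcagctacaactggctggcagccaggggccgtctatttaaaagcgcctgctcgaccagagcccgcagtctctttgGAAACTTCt
Igfbp4 promoter (GRCm38, chr11:99040994-99041243, plus strand): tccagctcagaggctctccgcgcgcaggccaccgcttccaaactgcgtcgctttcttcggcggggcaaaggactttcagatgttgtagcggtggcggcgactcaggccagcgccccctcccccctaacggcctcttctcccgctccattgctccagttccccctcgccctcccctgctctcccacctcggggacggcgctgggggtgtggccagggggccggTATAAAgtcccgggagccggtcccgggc
Windows of 300 bases (250 before to 50 after each start) were searched on both strands for GAANNTTC and TTCNNGAA, each an inverted pair of the unit of the heat shock element, and for TATAAA. The set has 14 such windows, since *Igf2* has 4 starts and *Igfbp2* has 2. A heat shock motif lay in 2 of the 14, in the *Igfbp5* window, beginning 9 bases before the start, and in 1 of the 4 *Igf2* windows, beginning 193 bases before it. Of 32851 promoters of all genes, 15.1% held either form. TATAAA was in the *Igfbp4* window, beginning 28 bases before the start, and in that of *Igfbp6*, against 13.6% of all promoters. These are matches of letters and are not evidence of binding.

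Total counts ranged from 2553348 to 12440257 and were lowest in the second replicate of each untreated genotype. *Hsf1* was at 40.5 and 36.5 CPM (counts scaled to library size by the TMM method) in untreated WT mice and 14.0 and 11.9 in untreated null mice. Treated WT mice had 50.5 and 45.9 CPM and treated null mice 13.5 and 9.09, so the genotypes did not overlap at either day. In edgeR's quasi-likelihood test *Hsf1* passed at day 15 (log2 2.10 ± 0.30 SE, adjusted p = 0.0137). It did not pass at day 0 (1.57 ± 0.30, adjusted p = 0.775). Which part of the gene the null allele lacks is not given in the sources used here. Replicate 1 of WT day 0 stood apart. In that library, from a mouse labelled male like the others, 4 Y-linked genes were present at 9.02 to 31.2 CPM, as they were in all 8 mice, while *Xist*, the RNA of the inactive X chromosome, was at 183 CPM against 0 to 4.81 CPM in the other 7. In that library 29 genes were over 5 times their level in every other sample. Replicate 2 of WT day 15 had 37 such genes, and each of the other 6 libraries had 2 or fewer. *Xist* is not usually found at such a level in tissue of a male animal, and whether this library holds RNA of 1 mouse only was not tested. Its values are therefore those of a library labelled WT day 0. Some log2 changes and calls of the members that rest on it are also given without it. For others the range over the 8 fits that each left out 1 library is given. With treatment in WT it was 1.76 to 3.25 for *Igf1*, 2.64 to 3.34 for *Igfbp4* and 3.04 to 3.45 for *Igfbp5*. It was -0.75 to -0.65 for *Igfbp3* and -2.27 to -0.42 for *Igfbp2*. Between genotypes at day 0 the range for *Igf1r* was 0.16 to 0.87.

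*Igf2*, the growth factor of fetal tissues, was at 238 CPM in replicate 1 of WT day 0 and 12.3 in replicate 2. The null mice at day 0 had 13.6 and 16.9 CPM. At day 15 WT mice had 13.4 and 16.2 CPM and null mice 11.8 and 11.1. The single high library was 14.1 times the highest of the other 7, which all lay between 11.1 and 16.9 CPM. The value rests on 2432 counts, and the other libraries held 31 to 166 counts of *Igf2*. Between genotypes at day 15, where WT was higher in every mouse, *Igf2* did not pass the test (log2 fold change 0.37 ± 0.89 SE, adjusted p = 0.839 in edgeR's quasi-likelihood test), nor did the change with treatment in null mice (log2 -0.40 ± 0.91, adjusted p = 0.795). The SE of both comes from all 4 groups and so includes the spread between the untreated WT libraries. Without replicate 1 of WT day 0 the log2 values were 0.37 (adjusted p = 0.587) and -0.40 (adjusted p = 0.485).

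*Igf2* lies at chr7:142650766-142666816 on the minus strand of GRCm38, 72.6 kb from *H19*, the imprinted non-coding RNA of the same cluster, at chr7:142575529-142578143. *H19* was at 65.2 CPM in the same library and 0.397 CPM in the other untreated WT library. The other 6 mice had between 0 and 4.33 CPM, so *H19* was also highest in replicate 1 of WT day 0. *Dlk1*, another imprinted fetal gene, was at 94.5 CPM there against at most 20.9 CPM in the other 7. *Grb10*, an imprinted adaptor that binds the insulin and IGF1 receptors, was at 161 CPM against at most 65.7 CPM. The RNA-binding proteins *Igf2bp1* and *Igf2bp3* were at 8.33 and 9.41 CPM, against at most 1.64 and 1.19 CPM elsewhere. Other imprinted genes were mixed. *Peg3*, *Plagl1*, *Mest* and *Ndn* were also highest in that library. *Meg3* (46.8 CPM), *Cdkn1c* (6.96) and *Airn* (5.78) were exceeded elsewhere, at up to 63.5, 12.7 and 8.62 CPM. Collagen *Col1a1* was at 1065 CPM there, against 166 in the other untreated WT mouse and up to 802 in the other 7. Of the 8 fibroblast markers *Col1a2* was also highest there, at 702 CPM against up to 634. *Col3a1* (378 CPM against up to 669), *Dcn*, *Lum*, *Fbln1*, *Pdgfra* and *Pdpn* were each higher in another mouse. The adipocyte lipid droplet gene *Cidec* was at 44.9 CPM against at most 24.8. Of the genes highest in that library together with *Igf2*, those named here other than *H19* were chosen after their values were seen. The part of *H19* and these genes in the *Igf2* level was not tested.

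**Figure D1:**
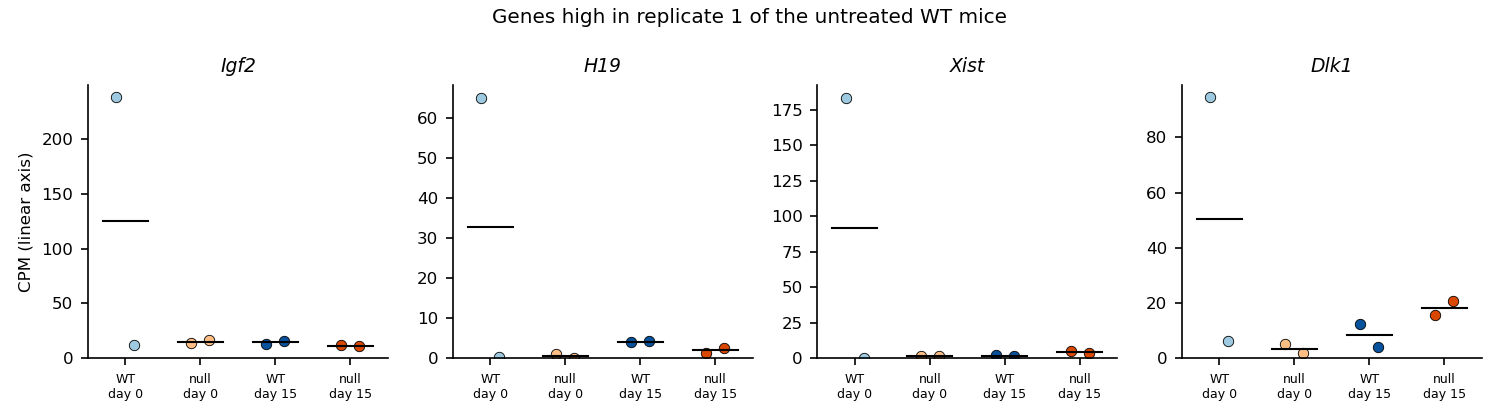
Levels of *Igf2*, *H19*, *Xist* and *Dlk1* in CPM (linear axis from 0) in each of the 8 mice, 2 points a group, with bars at the group means. One library labelled untreated WT is at 238 CPM of *Igf2* and 65.2 CPM of *H19*, and the other 7 are at or below 16.9 and 4.33 CPM.

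By Pearson's r of log2(CPM + 1) over the 8 samples, the genes most like *Igf2* were *Pcdh19* (r = 0.990), *Vgll3* (0.981), *Irx1* (0.972), *Masp1* (0.966) and *Lrp2* (0.966). Without replicate 1 of WT day 0 the r of *Irx1* was -0.19 and that of *Lrp2* was -0.22, and none of the 5 stayed among the nearest, so this likeness rests on 1 library. The values are descriptions across libraries that share a tissue and differ in depth.

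*Igf1*, the growth factor through which growth hormone acts, at chr10:87858265-87937042, was at 22.6 and 7.94 CPM in WT mice at day 0 and at 8.13 and 21.2 CPM in null mice. Treated WT mice had 57.6 and 94.1 CPM, and treated null mice 7.45 and 40.9 CPM. Both treated WT mice were above all 6 others, and the null mice at day 15 lay on both sides of the untreated range. Even so, *Igf1* did not pass the test, between genotypes at day 15 (log2 1.64 ± 0.73, adjusted p = 0.209) or with treatment in WT (2.23 ± 0.75, adjusted p = 0.0899). Between genotypes at day 15 the log2 difference ran from 0.88 to 3.34 when 1 library was left out. Each such fit leaves 1 mouse in a group, assumed to vary like the others. The rise in WT passed without replicate 1 (adjusted p = 0.0338) or replicate 2 (0.0366) of Hsf1 null day 15. The genes most like *Igf1* over the 8 samples were *Prim2* (r = 0.993), *Nolc1* (0.985), *Fam111a*, *Slc11a1* and *Fcgr4* (the last at 0.974). The first codes for a DNA primase subunit, and *Slc11a1* and *Fcgr4* for a metal transporter and an Fc receptor of myeloid cells.

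Neither receptor was called in any comparison. *Igf1r*, at chr7:67952827-68233668, was at 59.7 and 36.1 CPM in untreated WT, 29.4 and 35.6 in untreated null, 33.8 and 37.8 in treated WT and 29.9 and 22.3 CPM in treated null mice. WT mice were above null mice at both days without overlap, but neither difference passed (log2 0.58 ± 0.31, adjusted p = 0.794 at day 0, and 0.46 ± 0.31, adjusted p = 0.397 at day 15). *Igf2r*, which clears IGF2, is at chr17:12682406-12769664 and overlaps the antisense RNA *Airn*. It was at 104 and 84.6 CPM in untreated WT and at 64.1 and 76.5 CPM in untreated null mice. At day 15 the genotypes overlapped, at 85.1 and 78.8 CPM in WT mice and 92.1 and 73.3 CPM in null mice. Its 95% interval at day 15 ran from -0.54 to 0.51 in log2, around a difference of -0.01. Whether reads were counted by strand is not given in the sources used here, so reads from overlapping antisense genes (*Airn*, and those at *Igf1*, *Igf2* and *Igfbp7*) cannot be separated.

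*Igfbp5*, a binding protein held in the extracellular matrix, showed the largest fitted change of the 10 genes at day 15. It lies at chr1:72857932-72874884, on the minus strand, and its level was 152 and 113 CPM in untreated WT mice and 121 and 151 CPM in untreated null mice, which overlapped. After treatment the WT mice had 1148 and 1331 CPM and the null mice 58.2 and 128 CPM. Both treated WT mice were thus far above the other 6. *Igfbp5* was 13.3-fold higher in WT than in null mice at day 15 (log2 3.73 ± 0.40, adjusted p = 0.00631) and rose 9.31-fold from day 0 in WT (log2 3.22 ± 0.39, adjusted p = 0.00591). In null mice its change was -0.55 ± 0.36 (adjusted p = 0.326). The difference between the genotypes in the change was 3.76 ± 0.53, with an adjusted p of 0.0989, and it passed in DESeq2 (adjusted p = 2.76e-10) and without replicate 2 of Hsf1 null day 15 (0.0107). In WT the rise passed without replicate 1 of WT day 0 and in every other fit that left out 1 library (adjusted p at most 0.0353), as did the difference between genotypes at day 15 (at most 0.0440). The latter was log2 3.27 without replicate 1 of Hsf1 null day 15 and 4.41 without replicate 2. Fitted to the day 15 samples alone, it had an adjusted p of 0.0502.

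*Igfbp4*, which binds both ligands and is cut by the protease PAPP-A, at chr11:99041244-99054392, rose in WT mice as well. It was at 237 and 144 CPM in untreated WT and 124 and 146 CPM in untreated null mice. At day 15 WT mice were at 1362 and 1557 CPM, above null mice at 165 and 498 CPM. *Igfbp4* rose 7.64-fold in WT (log2 2.93 ± 0.49, adjusted p = 0.0111), and it was 4.40-fold higher in WT than in null mice at day 15 (2.14 ± 0.47, adjusted p = 0.0442). The second value was log2 1.54 without replicate 1 of Hsf1 null day 15 and 3.14 without replicate 2. This second call was the less stable. It was lost with the replicate block (adjusted p = 0.0560), with the 2 groups alone (0.115) and in 5 of 8 fits that left out 1 library: either mouse of Hsf1 null day 0, either mouse of WT day 15, or replicate 1 of Hsf1 null day 15, which gave the highest adjusted p of 0.172. The rise in WT was lost without replicate 2 of WT day 0 (adjusted p = 0.0858) and without replicate 2 of WT day 15 (0.0513). In null mice both treated animals were also above both untreated ones, and the change of 1.30 ± 0.46 did not pass (adjusted p = 0.0867), though it did in DESeq2 (0.0159) and without replicate 1 of Hsf1 null day 15 (0.0357).

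*Igfbp7*, a secreted protein of vessels and stroma that binds IGFs weakly, at chr5:77349240-77408041, was at 152 and 139 CPM in untreated WT, 115 and 142 CPM in untreated null, 238 and 273 CPM in treated WT and 32.7 and 134 CPM in treated null mice. The treated null mice lay far apart, and both were below both treated WT mice. The difference at day 15 (log2 1.62 ± 0.50) had an adjusted p of 0.0981 and passed in DESeq2 (0.00776). This difference ran from log2 0.93 to 2.96 when 1 library was left out. The change of *Igfbp7* in null mice then ran from -1.97 to 0.0607, and the difference in the change from 0.75 to 2.78. *Igfbp3*, the main carrier of IGFs in blood, at chr11:7206086-7213923, behaved differently. It was at 91.0 and 86.9 CPM in untreated WT, 52.7 and 57.5 in untreated null, 56.7 and 52.9 in treated WT and 31.5 and 26.7 CPM in treated null mice. WT mice were above null mice at each day, and treated mice were below untreated mice of the same genotype, with no overlap. The change with treatment in null mice was -0.92 ± 0.23 with an adjusted p of 0.0323, short of the fold threshold of log2 1, and in WT it was -0.70 ± 0.22 (adjusted p = 0.0806). Between genotypes at day 15 the difference was 0.91 ± 0.23 (adjusted p = 0.0606). Its sign turned when levels were divided by the summed fibroblast markers (log2 -0.66), and not when they were divided by smooth muscle markers (1.93).

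*Igfbp2*, which lies 5.46 kb from *Igfbp5* at chr1:72824503-72852474, was at 30.6 and 19.5 CPM in untreated WT and 5.01 and 2.87 CPM in untreated null mice. At day 15 WT mice were at 5.22 and 18.9 CPM and null mice at 7.14 and 13.2 CPM. Both untreated WT mice were above all 6 others, and the difference at day 0 (log2 2.60 ± 0.64) had an adjusted p of 0.775 in edgeR and 0.0273 in DESeq2. Without replicate 1 of WT day 0 it was log2 2.22, with an adjusted p of 1 in edgeR. It rests on as few as 8 counts, in replicate 2 of Hsf1 null day 0. *Igfbp6*, which prefers IGF2, at chr15:102144362-102149511, ranged from 6.02 to 25.7 CPM over the 8 mice with overlap in every comparison. *Igfbp6* is on the chromosome of *Hsf1*, 25.6 Mb away, and no other member is.

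**Figure D2:**
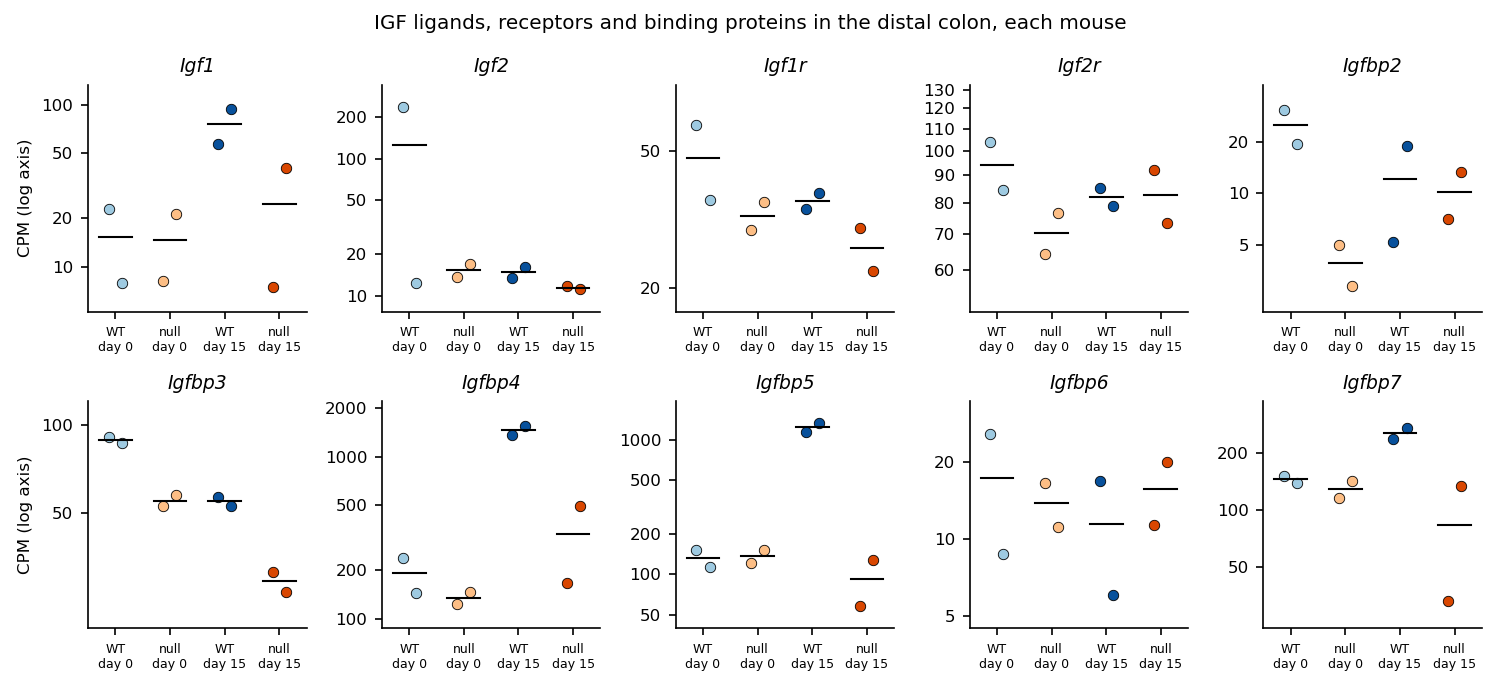
Level of each of the 10 genes in CPM (log axis, a separate range in each panel) in each of the 8 mice, 2 points a group, with bars at the group means. *Igfbp4* and *Igfbp5* are at or above 1148 CPM in both WT mice at day 15 and at or below 498 CPM in every other mouse.

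Of the 10 genes, 2 were called between genotypes at day 15 (*Igfbp4* and *Igfbp5*), where 3.17% of all genes tested were. To be called, a gene had to change by more than log2 1 with an adjusted p below 0.05. WT was above null in all mice for 7 of the 10, and 54.8% of all genes did not overlap in either direction. The 3 that overlapped were *Igf2r*, *Igfbp2* and *Igfbp6*. The median log2 difference was 0.68 over the 10 genes and 0.03 over all genes. With treatment in WT, 2 of 9 tested members were called (*Igfbp4* and *Igfbp5*), against 7.74% of all genes, and 6 of 9 did not overlap, against 62.5%. In null mice edgeR called 0 of 10, against 11.8% of all genes, while 2 had an unadjusted p under 0.05 and DESeq2 called 1. In the null mice 4 of 10 did not overlap, against 61.3% of genes. At day 0, 0 of 9 were called by edgeR and 0% of all genes were, with 2 at an unadjusted p under 0.05 and 1 called by DESeq2, and 4 of 9 did not overlap, against 37.1%. *Hsf1* itself did not pass at day 0 in edgeR, so 0 calls there do not show that the genotypes were alike. In the comparison of the change between genotypes, 0 of 9 were called, against 0.00696% of genes, with 3 at an unadjusted p under 0.05 and 1 called by DESeq2. The shares over all genes depended on single libraries. At day 15 between genotypes, 455 genes were called with all 8 libraries, 12 without either mouse of Hsf1 null day 0, 19 without replicate 2 of WT day 15, 30 without replicate 1 of Hsf1 null day 15 and 873 without its replicate 2. With treatment in WT, 1112 genes became 485 without replicate 1 of WT day 0, 133 without its replicate 2 and 92 without replicate 2 of WT day 15. In null mice 1692 became 0 without replicate 2 of Hsf1 null day 0, 487 without replicate 1 of Hsf1 null day 15 and 361 without its replicate 2. At day 0 the count was 17 without replicate 2 of WT day 0, and for the difference in the change it went from 1 to 50 without replicate 2 of Hsf1 null day 15. The comparisons share groups, so they are not independent of each other.

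**Figure D3:**
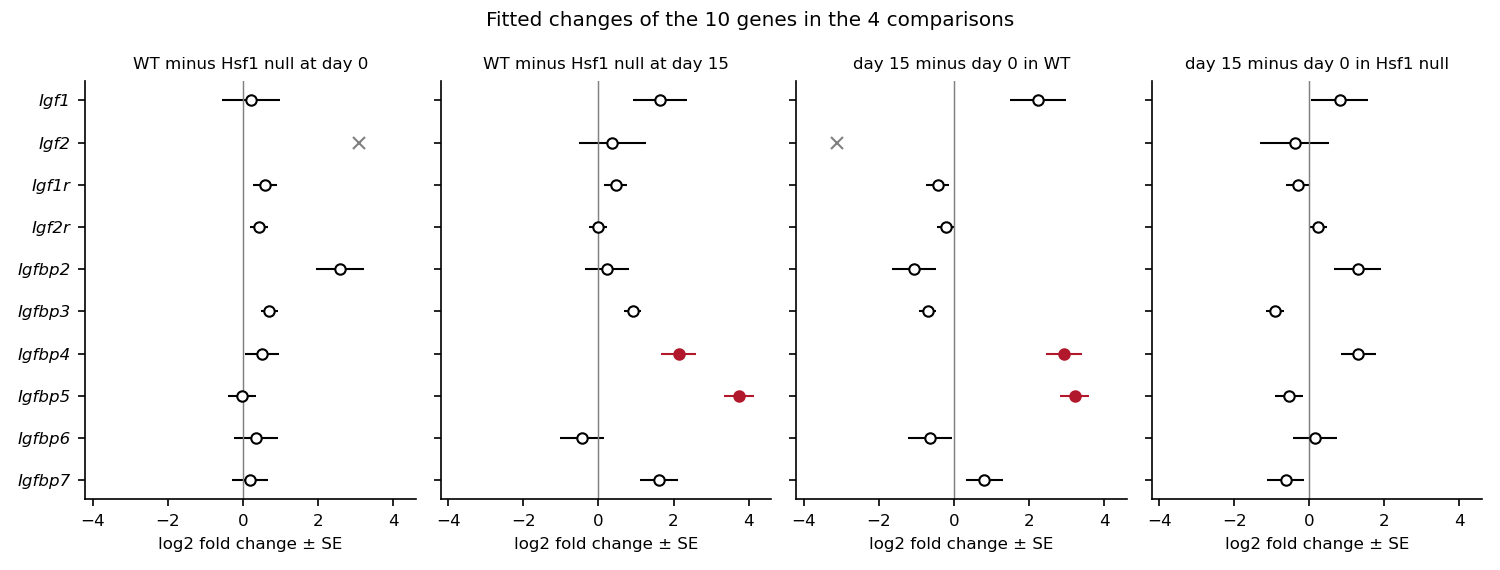
Fitted log2 fold change of each of the 10 genes in 4 comparisons, with bars of 1 SE derived from edgeR's F. Filled red points were called (*Igfbp4* and *Igfbp5* at day 15 and with treatment in WT), open points were not, and grey crosses mark *Igf2* where it was not tested.

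Levels of different genes were compared per kb of exon. In untreated mice *Igfbp7* had the highest level, 95.5 to 126 CPM per kb, 46.1% to 57.2% of the summed level of the 6 binding proteins. In WT mice at day 15 *Igfbp4* had the highest, at 308 and 353 CPM per kb. Its share there was 42.1% and 42.3%, and in null mice at day 15 it was 38.1% and 40.5%, above the 15.3% to 19.6% of untreated mice in both genotypes. The share of *Igfbp5* was 26.1% and 26.6% in WT mice at day 15, against 9.85% and 7.65% in null mice and 8.85% to 12.2% in untreated mice. Per kb, the ratio of *Igfbp5* to *Igfbp4* was 0.620 and 0.629 in treated WT and 0.259 and 0.189 in treated null mice. Untreated mice had 0.473 to 0.761, so the treated WT mice lay inside the untreated range and the treated null mice below it. The summed level of the 6 was 732 and 832 CPM per kb in treated WT and 98.3 and 278 in treated null mice, and 178 to 274 in untreated mice. Of the summed ligands, *Igf1* was 71.3% and 77.1% in treated WT mice, 26.7% and 68.1% in treated null mice and 5.20% to 42.0% in untreated mice. The lowest of these was the library with high *Igf2*.

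**Figure D4:**
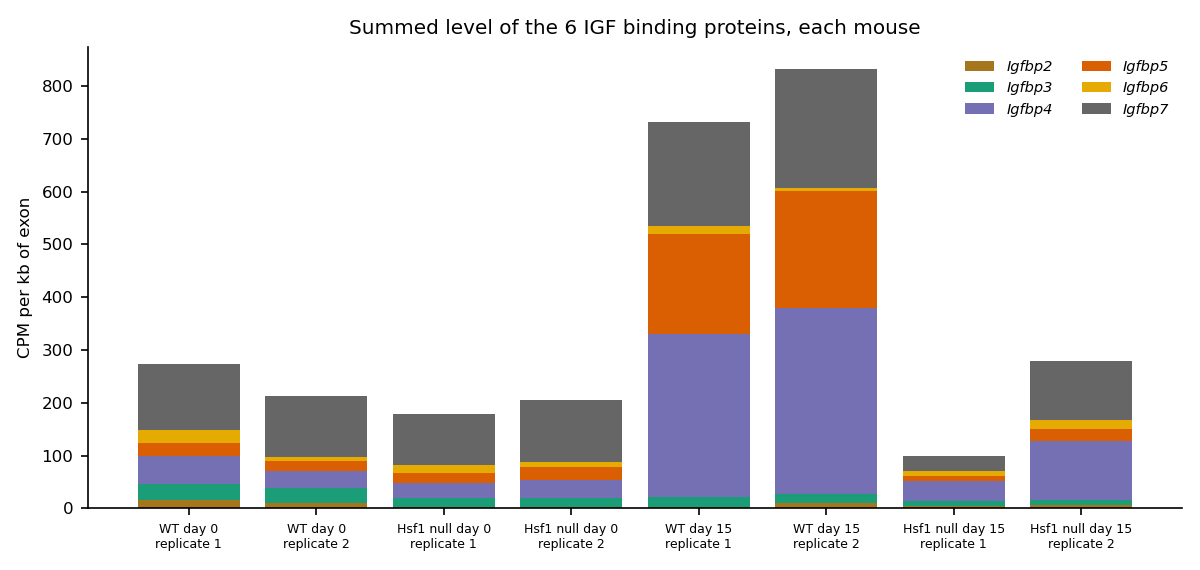
Summed level of the 6 binding proteins in CPM per kb of exon, stacked by gene, 1 bar for each of the 8 mice. The treated WT mice reach 732 and 832, and the other 6 lie between 98.3 and 278.

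Markers of cell types moved with these results. The summed level of 8 fibroblast markers, most of it from the collagens *Col1a1*, *Col1a2* and *Col3a1* in treated WT mice, was 2469 and 2481 CPM in treated WT mice and 466 and 1486 CPM in treated null mice, with 7 of 8 markers higher in both WT mice. *Dcn* was at 209 and 436 CPM in treated WT and 27.6 and 105 CPM in treated null mice. In untreated mice the sum was 814 to 2571 CPM, highest in replicate 1 of WT day 0. The 7 macrophage markers, of which *C1qa*, *C1qb* and *C1qc* were the highest in treated WT mice, summed to 897 and 1106 CPM in treated WT and 195 and 423 CPM in treated null mice, and the 7 endothelial markers to 277 and 247 against 77.2 and 143 CPM. The 8 smooth muscle markers went the other way, at 3540 and 2066 CPM in treated WT and 5071 and 5898 CPM in treated null mice, as did the 7 epithelial markers, at 14723 and 15998 against 23062 and 20012 CPM. The 5 pericyte markers summed to 131 and 172 CPM in treated WT and 57.9 and 76.8 CPM in treated null mice. In untreated WT mice macrophage markers summed to 401 and 225 CPM, endothelial to 144 and 85.0 and pericyte to 180 and 130. Smooth muscle markers there summed to 7051 and 9640 CPM and epithelial to 9812 and 14199. Enteric neuron and glia markers summed to 50.3 to 157 CPM over all mice, mesothelial markers to 4.03 to 27.7, adipocyte markers to 0 to 82.7 and skeletal muscle markers to 11.5 to 42.5. Of the 61 markers listed 1 (*Myh4*) is not among the genes counted, none of the others was at 0 in all mice, and the epithelial and muscle markers of colon were present in every library.

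Divided by the fibroblast sum of the same library, which is largely collagen RNA, *Igfbp5* was at 46.5% and 53.7% in treated WT and 12.5% and 8.60% in treated null mice, and at 5.92% to 14.9% in untreated mice. The treated WT mice stayed apart. *Igfbp4* was at 55.2% and 62.8% in treated WT and 35.5% and 33.5% in treated null mice, both above the 9.20% to 15.2% of untreated mice. *Igfbp7* was at 9.63% and 11.0% in treated WT against 7.03% and 8.99% in treated null mice, within the untreated range of 5.93% to 14.2%. The difference in mean log2 level between genotypes at day 15 was 2.27 for *Igfbp5*, 0.77 for *Igfbp4*, 0.50 for *Igf1*, 0.37 for *Igfbp7* and -0.66 for *Igfbp3* after this division, against 3.84, 2.34, 2.08, 1.95 and 0.92 before it. *Igfbp3* thus changed sign. Divided by the smooth muscle sum instead, which was lower in treated WT than in treated null mice, the same differences were 4.86 for *Igfbp5*, 3.36 for *Igfbp4*, 3.09 for *Igf1*, 2.96 for *Igfbp7* and 1.93 for *Igfbp3*. Per 100 CPM of muscle markers, *Igfbp7* was at 6.72 and 13.2 CPM in treated WT, 0.645 and 2.27 in treated null and 1.45 to 2.16 CPM in untreated mice, and *Igfbp3* kept its sign. Both divisions were chosen after the values were seen and have no test. How much of each difference goes with the numbers of these cells was not tested.

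**Figure D5:**
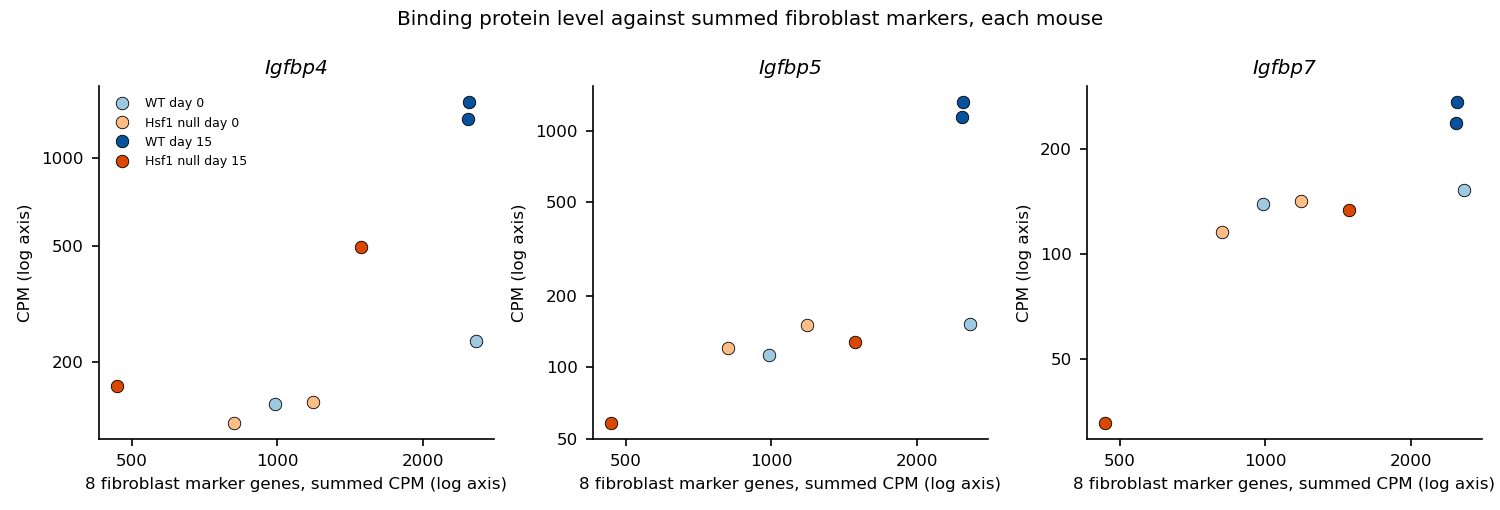
Level of *Igfbp4*, *Igfbp5* and *Igfbp7* in CPM (log axis) against the summed CPM of 8 fibroblast markers (log axis), 1 point for each of the 8 mice. At 2469 to 2571 CPM of markers lie the treated WT pair and WT day 0 replicate 1. They are at 1148, 1331 and 152 CPM of *Igfbp5*. That untreated library is the one set apart by *Xist*, and 1065 and 702 CPM of its marker sum are *Col1a1* and *Col1a2*. The part of fibroblast numbers in these levels was not tested.

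The genes whose levels were most like *Igfbp5* over the 8 samples were *Pi15* (r = 0.982), *Txnrd1* (0.979), *Wdr86* (0.976), *Gpx3* (0.969) and *Cers3* (0.967). Without replicate 1 of WT day 0 only *Pi15* of these stayed among the nearest 5, with r of the 5 between 0.974 and 0.986. *Gpx3*, a secreted glutathione peroxidase, was at 426 and 374 CPM in treated WT mice and 73.8 to 125 CPM in the other 6. *Txnrd1*, a thioredoxin reductase, was at 239 and 273 CPM against 112 to 153 CPM. *Pi15*, *Wdr86* and *Cers3* were at or below 20.9 CPM in every mouse.

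Of 64 other genes of the IGF system in the count table, 61 were tested, and 12 were called in at least 1 comparison. Their shares called were near those over all genes, given beside each count, so the calls are listed as values and not as a feature of these genes as a group. Between genotypes at day 15, 2 of 61 were called, both higher in WT, where 3.17% of all genes were. *Adamts1*, a matrix protease, was at 19.4 and 30.3 CPM in WT mice and 2.95 and 7.09 in null mice (log2 2.29 ± 0.53, adjusted p = 0.0493). *Stat5b*, which carries the growth hormone signal, was at 62.6 and 67.4 against 27.8 and 31.8 CPM (1.12 ± 0.23, adjusted p = 0.0365). With 1 library left out in turn, *Adamts1* was called in 3 of 8 fits (log2 1.80 to 3.07, adjusted p at most 0.258) and *Stat5b* in 1 of 8, without replicate 2 of Hsf1 null day 15 (adjusted p at most 0.222). The median of 13 tested genes that set how much free ligand there is (proteases, their inhibitors and carriers) was 1.22 in log2, against 0.03 over all genes, and that of 30 genes of receptor signalling was 0.29.

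With treatment in WT, 6 of 61 were called, against 7.74% of all genes. Those that fell included the insulin receptor *Insr* (log2 -1.31 ± 0.28, adjusted p = 0.0265), the PI3-kinase subunit *Pik3r1* (-1.03 ± 0.23, 0.0271) and the mTOR partner *Rictor* (-1.01 ± 0.24, 0.0357). The matrix metalloproteinases *Mmp3* and *Mmp7*, which can cut binding proteins, rose (adjusted p = 0.0289 and 0.0166). *Mmp3* was at 14.3 and 215 CPM in treated WT mice, a wide spread, and at 3.72 and 0.397 in untreated WT. *Mmp7* was at 79 and 35 counts in treated WT and at 2 and 0 counts in untreated WT, so no fold is given. All 6 calls were lost without replicate 1 of WT day 0, without its replicate 2 and without replicate 2 of WT day 15. Without replicate 1 of WT day 0 the log2 change of *Insr* was -1.37 (adjusted p = 0.0666), that of *Pik3r1* -1.03 (0.0923) and that of *Rictor* -0.87 (0.159), and the adjusted p of *Mmp3* was 0.0698.

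In null mice 6 of 61 were called, against 11.8% of all genes. *Rictor* (-1.07 ± 0.24, adjusted p = 0.0257) fell here too. So did the adaptor *Grb14* (-1.74 ± 0.47, 0.0398), the ubiquitin ligase *Nedd4* (-1.04 ± 0.29, 0.0445) and the growth hormone receptor *Ghr* (-1.63 ± 0.43, 0.0383). The imprinted RNA *Meg3* rose (1.52 ± 0.38, 0.0322). *Nedd4* was called in 0 of the 8 fits that left out 1 library (adjusted p at most 0.244, log2 -1.41 to -0.74) and *Grb14* in 2. *Rictor*, *Ghr* and *Meg3* were called in 5 of 8 each, and lost without replicate 2 of Hsf1 null day 0 or either mouse of Hsf1 null day 15. *Ghr* was also lower in both treated WT mice, at 14.9 and 10.1 CPM against 46.1 and 27.8 CPM untreated, and was not called there. Between genotypes at day 0, and for the difference in the change, 0 of 61 were called by edgeR.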

How the data were processed

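Distal colon RNA was sequenced in 8 mice, which the labels put in 4 groups. The authors aligned reads to mm10 with STAR and deposited raw counts per gene symbol. The deposited normalized signal is each count divided by its sample's DESeq2 size factor, and it served only as an alternative scale. The counting program and annotation are not given in the sources used here. Counts were fitted in R 4.3.3 with edgeR 4.0.16 (TMM, quasi-likelihood, 1 model of 4 groups and 8 samples) over 14371 genes, those whose mean normalized count exceeded 5. P-values were adjusted by Benjamini-Hochberg over all genes tested. Called genes had an adjusted p below 0.05 and changed by more than log2 1. CPM uses TMM-scaled library sizes, and lengths are exon unions from GENCODE M21 on GRCm38. An exact permutation test of 2 mice against 2 cannot go below p = 0.333. The fits were tested on simulated data, where the first limit on false calls was missed and was then reset as a share of all calls. The reset came after the miss was seen, so that test is not used as support here. Named genes are the 10 members, *Hsf1*, *H19*, called genes of the IGF lists, the 5 genes most like *Igf1*, *Igf2* and *Igfbp5*, and first markers of cell lists, and other genes named were chosen after their values were seen. For 1 called gene of the IGF lists, results are not reported here. Members, gene lists and tests were chosen with earlier results of these data known. The alternatives were DESeq2 1.42.0, its size factors, other filters and thresholds, a replicate block, thinning, fewer groups, and leaving out each library.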

Additional observations from a re-analysis of the deposited data

Results flagged for a closer look

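The fitted values of *Igfbp2* had opposite signs in the genotypes, and neither passed the test. From day 0 to day 15 it was lower in both WT mice (30.6 and 19.5 CPM, then 5.22 and 18.9) and higher in both null mice (5.01 and 2.87 CPM, then 7.14 and 13.2). The fitted log2 values were -1.07 (adjusted p = 0.264) and 1.29 (adjusted p = 0.187), and 19.5 and 18.9 CPM were the closest values of the 2 days in WT. The difference between the changes was -2.36 ± 0.86 SE in log2, with an unadjusted p of 0.0206 in edgeR's quasi-likelihood test and an adjusted p of 0.502, so it did not pass the correction. It kept its sign in all 8 fits that left out 1 library, from -3.56 to -1.71. Groups of 2 mice are too small to test for single outlying samples.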

How the results depend on the processing

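Of 790 values of single members' fold changes under the alternatives, 740 kept their direction and their side of the threshold. In 23 the sign turned, in 14 a call was lost and in 13 a call was gained. Most were of members not called with all 8 libraries. The alternatives that only move the threshold use the same fit, so direction could not change there. The number of members called at day 15 between genotypes (2) was 0 at an adjusted p under 0.005, 1 with the replicate block, 0 with the 2 groups alone and 1 to 4 when 1 library was left out, with 4 without replicate 2 of Hsf1 null day 15. In DESeq2 the number at day 15 was 3, and at day 0 it was 1 against 0. With treatment in WT (2) it was 0 at an adjusted p under 0.005 and 1 to 3 with 1 library left out, and 1 without replicate 2 of either WT group. In null mice (0) it was 1 in DESeq2, 1 with no fold threshold and 0 to 1 with 1 library left out. For the difference in the change (0) it was 1 in DESeq2 and 0 to 2 with 1 library left out, with 2 without replicate 2 of Hsf1 null day 15. The 12 other IGF genes called became 0 at an adjusted p under 0.005 and 5 to 13 with 1 library left out (5 without replicate 1 of WT day 0, 7 without its replicate 2, and 5 without replicate 2 of Hsf1 null day 0 or of WT day 15). The causes were not tested, and fits that leave a group with 1 mouse assume that it varies like the other groups.

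The replicate block gave *Igfbp5* a log2 difference of 0.0082 at day 0 against -0.03. Same-numbered mice are different animals, their deviations correlated from -0.30 to 0.20 between groups, and the numbers were not taken as pairs. Thinning to the smallest library gave *Igf2r* 0.0383 at day 15 against -0.01, and *Igf1r* 0.0869 for the difference in the change against -0.13.

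Leaving out 1 library turned the sign of these fitted log2 changes, none of which was called with all 8 libraries (*Igfbp7* in null mice was called without replicate 2 of Hsf1 null day 15): between genotypes at day 15, *Igf2r* (-0.17 to 0.15), *Igfbp2* (-0.97 to 0.89), *Igfbp6* (-1.38 to 0.10), and between genotypes at day 0, *Igf1* (-0.81 to 0.99), *Igfbp5* (-0.26 to 0.15), *Igfbp6* (-0.68 to 0.85), and with treatment in WT, *Igfbp6* (-1.57 to 0.39), and with treatment in null mice, *Igf1* (-0.89 to 1.58), *Igfbp6* (-0.31 to 0.50), *Igfbp7* (-1.97 to 0.0607), and for the difference in the change, *Igf1r* (-0.43 to 0.30), *Igfbp6* (-1.72 to 0.23). Dividing by fibroblast markers turned *Igfbp3* at day 15 to -0.66. With the longest transcript in place of the exon union, shares of the binding proteins at day 15 were 45.2% for *Igfbp4*, 24.5% for *Igfbp5* and 25.3% for *Igfbp7* in WT and 41.4% for *Igfbp4* in null mice, against 42.2%, 26.4%, 27.0% and 39.3%. Spearman's rho over 8 samples tied genes at its highest values (*Slc11a1* with *Igf1* and *Pi15* with *Igfbp5* had a rho of 1), so its nearest 5 genes are not compared with those by Pearson's r. *Igfbp2* had 8 and 61 counts in the untreated null libraries, the depth behind its difference at day 0.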
